A study of Mus musculus with 30 samples.

Results

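The genes described are 8 C-type lectin receptor genes of myeloid cells, Clec4a1, Clec4a2, Clec4a3, Clec4d, Clec4e, Clec4n, Clec5a and Clec12a, chosen by their symbols from the 54532 genes of the count table. The choice was made with earlier results of these data known. All 8 lay on chromosome 6 at positions that match GRCm38, and all 8 are protein coding. They were followed in bulk RNA sequencing of brain microglia from C57/B6 mice obtained by 5 isolation procedures, each with 3 libraries treated with HMGB1 and 3 Control libraries, 30 in all. The comparison asks how the isolation and culture procedure changes the resting transcriptome of microglia and its response to HMGB1, a nuclear protein that acts as a danger signal once it is released from damaged cells. HMGB1 was applied for 4 h in serum-free medium before RNA was extracted.

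Protocols 1A, 1B and 1C used newborn mice (postnatal days 0 to 3, 5 mice pooled into a suspension, replicates from distinct litters). Microglia were shaken off a mixed glial culture after 10 days with 0.5 ng/ml GM-CSF (Protocol 1A), after 10 days without GM-CSF (Protocol 1B) or after 21 days with 0.5 ng/ml GM-CSF (Protocol 1C). GM-CSF is a growth factor for myeloid cells, and M-CSF is another. Protocol 2 used adult mice (6 to 8 weeks, 3 brains pooled), whose cells were selected by adherence and kept in culture with both factors, each at 100 ng/ml, for 7 days. Protocol 3 used adult mice of the same age, whose cells were taken with magnetic beads against CD11b and stimulated at once without culture. CD11b is found on most myeloid cells, so neither this selection nor the others by itself separates microglia from other macrophages. By flow cytometry, the study reported high purity in all protocols, with little contamination from macrophages. A dose of HMGB1 was given in the study's methods for Protocol 3 only. Age, selection and culture differ together between Protocol 1 and Protocols 2 and 3, and selection and culture differ together between Protocols 2 and 3, so their parts in such a difference cannot be told apart.

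C-type lectin receptors are surface proteins of macrophages, dendritic cells and granulocytes that bind sugars and lipids of microbes or molecules from dying cells. The products of Clec4e (Mincle, a receptor for mycobacterial cord factor and for the nuclear protein SAP130), Clec4d (MCL, which pairs with Mincle at the surface) and Clec4n (Dectin-2, a receptor for fungal mannans) signal through the Fc receptor gamma chain, encoded by Fcer1g, to the kinase Syk and the Card9, Bcl10 and Malt1 complex. The product of Clec5a (MDL-1) uses the adaptor DAP12, encoded by Tyrobp, and also leads to Syk. Clec4a2 (DCIR) and Clec12a (MICL) encode receptors with an inhibitory motif that recruits phosphatases, and Clec4a1 and Clec4a3 encode relatives of DCIR. In mouse macrophages Clec4e is a known target of the transcription factor C/EBP beta, and PU.1 is needed for most myeloid genes.

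The Clec4 cluster ran over 368 kb, at chr6:122921848-123289870. It held 13 annotated genes, of which 9 are protein coding. All 9 are C-type lectin genes and 6 of them are among the 8 described: Clec4a1 (ENSMUSG00000049037, chr6:122921848-122934619), Clec4a3 (ENSMUSG00000043832, chr6:122952515-122969875), Clec4a2 (ENSMUSG00000030148, chr6:123106428-123143999), Clec4n (ENSMUSG00000023349, chr6:123229843-123247021) and Clec4d (ENSMUSG00000030144, chr6:123262111-123275265) on the plus strand and Clec4e (ENSMUSG00000030142, chr6:123281789-123289870) on the minus strand. Clec4d and Clec4e are neighbours that point towards each other. Clec5a (ENSMUSG00000029915, chr6:40574894-40585821, minus strand) and Clec12a (ENSMUSG00000053063, chr6:129342691-129365303, plus strand) lay outside it, 82336 and 6053 kb away. Of the stretches of 50 bases in the Clec4a2 transcripts, 6.69% also occurred in other genes, among them Clec4a4 and Clec4b1, and a pseudogene lay within Clec4a2 on the same strand, so its counts are less certain than those of the other members, for which this share was at most 0.69%.

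The promoters of the 4 members with the largest responses to HMGB1 in Protocol 1A are shown, from 250 bases before to 50 bases after the RefSeq start, in the GRCm38.p6 build. Capitals mark matches on either strand to the core of the C/EBP motif (TTGCNNAA) or of the PU.1 motif (GAGGAA, which reads TTCCTC on the other strand).
Clec4e, chr6:123289822-123290121, minus strand: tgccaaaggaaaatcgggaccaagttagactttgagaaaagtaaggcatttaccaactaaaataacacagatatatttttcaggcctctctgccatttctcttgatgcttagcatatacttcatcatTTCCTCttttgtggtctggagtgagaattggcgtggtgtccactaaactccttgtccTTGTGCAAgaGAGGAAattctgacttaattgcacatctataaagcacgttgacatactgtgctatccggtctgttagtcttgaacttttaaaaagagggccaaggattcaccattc
Clec5a, chr6:40585756-40586055, minus strand: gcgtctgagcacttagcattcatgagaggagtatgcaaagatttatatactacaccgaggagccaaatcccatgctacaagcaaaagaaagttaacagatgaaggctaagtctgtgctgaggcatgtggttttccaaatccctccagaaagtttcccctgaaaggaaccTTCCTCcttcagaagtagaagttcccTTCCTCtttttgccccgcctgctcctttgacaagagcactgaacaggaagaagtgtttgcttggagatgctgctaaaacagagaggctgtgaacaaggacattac
Clec4a1, chr6:122921598-122921897, plus strand: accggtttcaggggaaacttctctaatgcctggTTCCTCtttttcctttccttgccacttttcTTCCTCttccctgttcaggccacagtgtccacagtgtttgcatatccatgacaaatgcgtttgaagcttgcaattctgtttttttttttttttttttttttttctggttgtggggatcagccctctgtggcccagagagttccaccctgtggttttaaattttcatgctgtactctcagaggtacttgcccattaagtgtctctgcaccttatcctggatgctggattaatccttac
Clec4d, chr6:123261857-123262156, plus strand: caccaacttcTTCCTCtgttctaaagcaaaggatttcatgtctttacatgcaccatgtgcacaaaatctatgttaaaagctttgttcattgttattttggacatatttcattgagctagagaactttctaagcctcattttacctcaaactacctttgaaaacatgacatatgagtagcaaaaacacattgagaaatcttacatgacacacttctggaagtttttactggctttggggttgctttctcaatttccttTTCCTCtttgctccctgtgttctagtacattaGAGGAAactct
Among these, the promoter of Clec4e was the one with a C/EBP core, at -66 to -59 from the start, next to a PU.1 core at -56 to -51 and with a second PU.1 core at -123 to -118. The promoter of Clec5a held PU.1 cores at -81 to -76 and -55 to -50, that of Clec4a1 at -217 to -212 and -187 to -182, and that of Clec4d at -240 to -235 and on the transcribed side at 8 to 13 and 40 to 45. Clec12a also had a C/EBP core, at -140 to -133, with an AP-1 motif (TGANTCA) at -213 to -207 and PU.1 cores at -61 to -56 and -47 to -42. The remaining matches were a PU.1 core at -50 to -45 of Clec4a3 and an AP-1 motif at 32 to 38 of Clec4a2. No promoter of a member held the NF-kB consensus, and none of the matches overlapped another. RefSeq promoters were matched for 7 of the 8 members, and Clec4n had no entry. Of 32851 mouse promoters of the same length, 10.8% held the C/EBP core, 28.3% the PU.1 core, 7.8% the AP-1 motif and 8.5% the NF-kB consensus, so PU.1 cores are common.

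Libraries held 14151983 to 28564757 counts, and each member had at least 102 counts in every library. Levels are given as CPM, counts divided by the library size after scaling with edgeR's TMM factors over all 30 libraries. In Protocols 1A, 1B and 1C these factors were lower with HMGB1 than in Control, at 0.731 to 0.786 against 1.141 to 1.217 in Protocol 1C. Small responses there, such as those of Clec12a and Clec4n, rest on this scaling. DESeq2's size factors differed from it by 0.03 to 0.05 log2 in the responses of these 3 protocols. Microglia markers summed to between 5426 and 6381 CPM in Protocol 3 and between 2028 and 3738 CPM elsewhere, with Siglech at 0 in the HMGB1 libraries of Protocol 1B. Compared with Protocol 3 in Control libraries, 2 of these 11 markers were higher and 8 lower in Protocol 1 by edgeR's test. In Protocol 2, 3 were higher and 7 lower. Markers of neutrophils, cells that also express Clec4d and Clec4e, summed to between 417 and 826 CPM in HMGB1 libraries of Protocol 3 and between 417 and 864 CPM in its Control libraries, with none of the 12 at 0, against at most 121 CPM elsewhere, where S100a9 was at or near 0. The highest sums, 826 CPM with HMGB1 and 864 CPM in Control, belonged to the libraries numbered 2, so results of Protocol 3 were also computed without both. Markers of dendritic cells summed to between 82.7 and 106 CPM in Protocol 3 and to at most 9.77 CPM elsewhere. Those of border macrophages summed to between 459 and 660 CPM in Protocol 3 and between 1207 and 3761 CPM elsewhere. This sum hides a split list. In edgeR's test of Control libraries over Protocol 3, 4 of the 8 markers rose and 4 fell, for Protocol 1 and again for Protocol 2. The median log2 fold changes of the list were 0.28 and -0.95. Since these are bulk samples, fewer cells of a type and less RNA per cell cannot be told apart.

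HMGB1 changed all 8 members in Protocol 1A, all 8 in Protocol 1B and 5 of 8 in Protocol 1C, in edgeR's quasi-likelihood test with Benjamini-Hochberg adjustment over all genes (adjusted p below 0.05). Clec4e, Clec5a, Clec4d, Clec4a1 and Clec12a rose in each of the 3 protocols. In Protocol 1A 6 members rose and 2 fell, where 29.7% of all 13489 genes tested rose and 31.6% fell. In Protocol 1B 8 members rose, where 29.8% of all 13598 genes tested rose and 32% fell. In Protocol 1C 5 members rose and none fell, where 28.4% of all genes rose and 31.8% fell. The median log2 fold change of the 8 members was 1.03 in Protocol 1A, 1.52 in Protocol 1B and 1.18 in Protocol 1C, beside -0.04, -0.02 and -0.04 over all genes tested. The markers of monocytes, cells that also express several of these receptors, summed to between 1259 and 1350 CPM with HMGB1 in Protocol 1A against 617 to 718 CPM in Control, to between 616 and 652 CPM against 239 to 348 CPM in Protocol 1B, and to between 1593 and 1620 CPM against 677 to 874 CPM in Protocol 1C. Of 7 monocyte markers tested in Protocol 1A, and of 7 in Protocol 1C, 5 rose and 1 fell. In Protocol 1B only 3 were tested, and all 3 rose. Neutrophil markers, with S100a9 at or near 0, summed to between 97.04 and 121 CPM with HMGB1 against 43.2 to 61.1 CPM in Control in Protocol 1A, to between 11.4 and 16.2 CPM against 2.40 to 4.57 CPM in Protocol 1B, and to between 31.9 and 46.3 CPM against 13.6 to 29.2 CPM in Protocol 1C. Few neutrophil markers were tested, and 3 of 4 rose in Protocol 1A, 1 of 2 in Protocol 1B and 2 of 3 in Protocol 1C. The sums of endothelial markers were also higher with HMGB1 in these 3 protocols, at between 204 and 305 CPM against 44.0 to 58.9 CPM in Protocol 1C, where they were highest. Those of astrocyte markers were between 48.4 and 56.1 CPM with HMGB1 against 28.04 to 38.98 CPM in Control in Protocol 1A, were apart in Protocol 1C as well and overlapped in Protocol 1B. In HMGB1 libraries of Protocol 1A, 6 of the 12 neutrophil markers were at 0: Ngp, Ltf, Retnlg, Ly6g, Elane and Mpo. Of the 8 monocyte markers, Ly6c2, Plac8 and Chil3 were at 0 with HMGB1 in Protocol 1B. The endothelial marker Cldn5 was at 0 with HMGB1 in Protocols 1B and 1C. Other markers of each list had counts in these groups. The part of these cell types in the changes of the members was not tested.

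**Figure D1:**
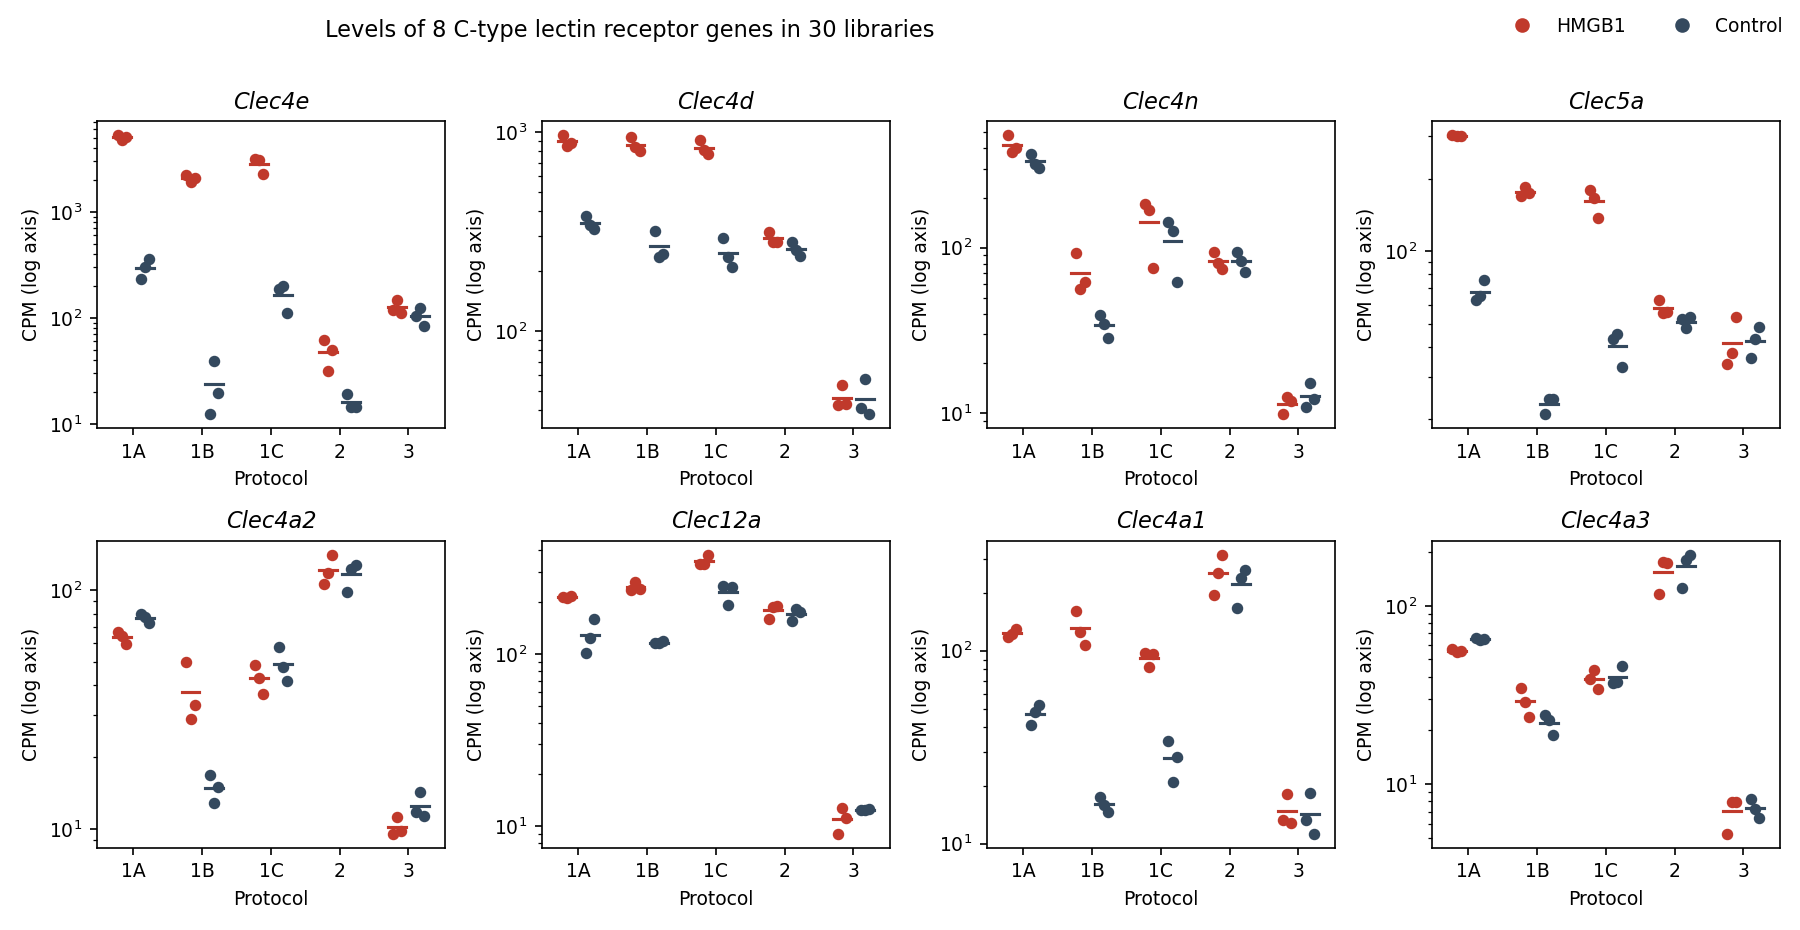
CPM on a log axis of the 8 receptor genes in each of the 30 libraries, by protocol, with HMGB1 libraries in red left of Control libraries in dark blue; dots are libraries and bars are the means of 3. Clec4e in Protocol 1A lay between 4775 and 5281 CPM with HMGB1, against 233 to 357 CPM in Control, and Clec12a in Protocol 3 lay between 9.03 and 12.8 CPM with either treatment.

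Among the activating receptors, Clec4e had the largest response of the 8 members. In Protocol 1A it had 5281, 4775 and 5112 CPM in HMGB1 libraries, against 233, 304 and 357 CPM in Control libraries (log2 fold change 4.06 ± 0.160 SE, edgeR adjusted p = 2.91e-07). In Protocol 1B it had 2224, 1898 and 2088 CPM with HMGB1, against 12.3, 39.2 and 19.4 CPM in Control (6.44 ± 0.532, edgeR adjusted p = 3.20e-04). Every HMGB1 library stood far above every Control library, and the larger fold in Protocol 1B went with its low Control level, since its HMGB1 level was below that of Protocol 1A. In Protocol 1C Clec4e had 3154, 3093 and 2282 CPM with HMGB1, against 188, 199 and 112 CPM in Control (4.10 ± 0.256, edgeR adjusted p = 2.69e-06).

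Clec4d, the partner of Clec4e, reached nearly the same level with HMGB1 in the 3 neonatal protocols. It had 960.2, 849 and 874 CPM with HMGB1 and 379, 342 and 326 CPM in Control in Protocol 1A (log2 fold change 1.33 ± 0.0784 SE, edgeR adjusted p = 3.85e-09). In Protocol 1B it had 942, 844 and 799 CPM with HMGB1 and 317, 236 and 244 CPM in Control (1.70 ± 0.113, edgeR adjusted p = 9.36e-07). In Protocol 1C it had 908, 810.1 and 771 CPM with HMGB1 and 292, 236 and 210.0 CPM in Control (1.76 ± 0.132, edgeR adjusted p = 4.07e-07). The HMGB1 libraries of the 3 protocols overlapped each other in level, and none overlapped a Control library.

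Clec4n, the gene of Dectin-2, responded least of the activating receptors. In Protocol 1A it had 478, 381 and 399 CPM with HMGB1, against 369, 322 and 305 CPM in Control (log2 fold change 0.31 ± 0.0995 SE, edgeR adjusted p = 0.0189). That call was lost without Control replicate 2 (0.29, adjusted p = 0.0580 by edgeR), Control replicate 3 (0.25, 0.0524) or HMGB1 replicate 1 (0.21, 0.0580), and in a fit of all 30 libraries (0.34, 0.354). Clec4n had 92.3, 56.1 and 61.7 CPM with HMGB1 in Protocol 1B, against 39.0, 34.7 and 28.4 CPM in Control (1.04 ± 0.212, edgeR adjusted p = 0.00502). In Protocol 1C it had 183, 169.9 and 75.2 CPM with HMGB1 and 143, 126 and 61.8 CPM in Control (0.38 ± 0.484, edgeR adjusted p = 0.545). The third library was the lowest with either treatment there, and the groups overlapped.

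Clec5a rose with a narrow spread in Protocols 1A and 1B. It had 303, 302 and 300.2 CPM with HMGB1 in Protocol 1A, against 62.7, 65.3 and 75.7 CPM in Control (log2 fold change 2.13 ± 0.0733 SE, edgeR adjusted p = 1.77e-11). In Protocol 1B it had 169.8, 184 and 174 CPM with HMGB1, against 20.98, 24.2 and 24.4 CPM in Control (2.93 ± 0.0815, edgeR adjusted p = 6.22e-10). In Protocol 1C it had 179.9, 167 and 137 CPM with HMGB1, against 43.1, 45.2 and 32.9 CPM in Control (2.01 ± 0.140, edgeR adjusted p = 4.25e-07). The lowest HMGB1 library was above the highest Control library in each of the 3 protocols.

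The inhibitory receptors moved apart in Protocol 1A, where Clec12a rose and Clec4a2 fell. Clec12a had 215, 212 and 218 CPM with HMGB1 in Protocol 1A, against 102, 124 and 159 CPM in Control (log2 fold change 0.72 ± 0.148 SE, edgeR adjusted p = 0.00507). It had 234, 264 and 239 CPM with HMGB1 and 115, 116 and 118 CPM in Control in Protocol 1B (1.09 ± 0.0659, edgeR adjusted p = 1.50e-07). In Protocol 1C it had 335, 332 and 376 CPM with HMGB1 and 249, 192 and 244 CPM in Control (0.61 ± 0.114, edgeR adjusted p = 6.26e-04). In scaled CPM every HMGB1 library was thus above every Control library in these 3 protocols. The scaling factors were lower with HMGB1 than in Control in each of them. Clec4a2, the gene of DCIR, had 66.9, 64.3 and 59.8 CPM with HMGB1 in Protocol 1A, against 79.6, 77.1 and 73.0 CPM in Control (-0.29 ± 0.0686, edgeR adjusted p = 0.00216, and -0.27 with adjusted p = 0.177 in a fit of all 30 libraries). In Protocol 1B it had 50.2, 28.9 and 33.1 CPM with HMGB1, against 16.8, 12.9 and 14.99 CPM in Control (1.33 ± 0.210, edgeR adjusted p = 9.72e-04). Clec4a2 was thus lower with HMGB1 in Protocol 1A, with GM-CSF, and higher with HMGB1 in Protocol 1B, without it, and the groups were apart in both. In Protocol 1C it had 48.7, 42.9 and 37.0 CPM with HMGB1 and 57.9, 48.0 and 41.7 CPM in Control (-0.19 ± 0.137, edgeR adjusted p = 0.258).

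The 2 other relatives of DCIR differed from each other. Clec4a1 had 118, 122 and 129 CPM with HMGB1 in Protocol 1A, against 41.4, 47.9 and 52.2 CPM in Control (log2 fold change 1.36 ± 0.0806 SE, edgeR adjusted p = 4.10e-09). In Protocol 1B it had 160.4, 125 and 107 CPM with HMGB1, against 17.5, 15.8 and 14.6 CPM in Control (3.04 ± 0.156, edgeR adjusted p = 6.71e-07). In Protocol 1C it had 97.3, 82.01 and 95.6 CPM with HMGB1, against 34.0, 20.9 and 28.2 CPM in Control (1.74 ± 0.163, edgeR adjusted p = 1.20e-05), and the groups were apart in all 3 protocols. Clec4a3 changed little: it had 56.9, 55.0 and 55.6 CPM with HMGB1 in Protocol 1A, against 66.3, 64.3 and 64.9 CPM in Control (-0.25 ± 0.0618, edgeR adjusted p = 0.00317, and -0.22 with adjusted p = 0.303 in a fit of all 30 libraries). In Protocol 1B it had 34.4, 28.998 and 23.8 CPM with HMGB1 and 24.4, 22.8 and 19.0 CPM in Control (0.40 ± 0.143, edgeR adjusted p = 0.0363). These groups overlapped, and the call was lost without Control replicate 2 (0.43, adjusted p = 0.0660 by edgeR), Control replicate 3 (0.30, 0.114), HMGB1 replicate 1 (0.25, 0.113) or HMGB1 replicate 2 (0.37, 0.0989) and in a fit of all 30 libraries (0.39, 0.0783). In Protocol 1C the log2 fold change of Clec4a3 was -0.03 ± 0.118 (edgeR adjusted p = 0.827), with groups that overlapped.

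**Figure D2:**
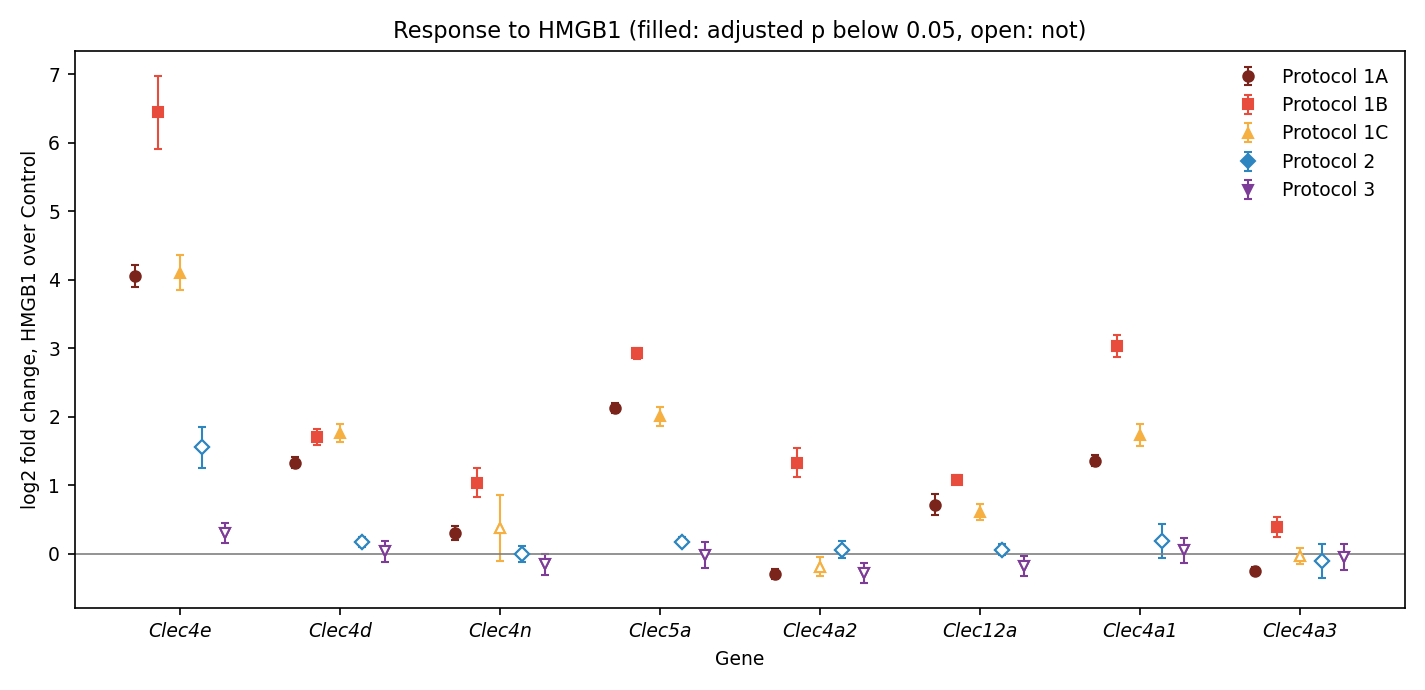
Log2 fold change of HMGB1 over Control for each receptor gene and protocol, with bars of 1 standard error; filled symbols passed edgeR's adjusted p below 0.05 and open ones did not. Clec4e had the highest value of the 8 genes in Protocols 1A (4.06), 1B (6.44) and 1C (4.10), and every symbol of Protocols 2 and 3 is open.

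Along the cluster, the responses followed no simple order by position. The genes at its ends, Clec4a1 and the pair of Clec4d and Clec4e, rose in the 3 neonatal protocols, while Clec4a3 and Clec4a2 between them had log2 fold changes between -0.29 and -0.03 in Protocols 1A and 1C. Clec4n, the neighbour of Clec4d on the other side from Clec4e, had log2 fold changes of 0.31, 1.04 and 0.38 in Protocols 1A, 1B and 1C, below those of Clec4d. The other 3 coding genes of the cluster were low, with group means of at most 2.31 CPM for Clec4a4, 1.08 CPM for Clec4b1 and 0.16 CPM for Clec4b2. Clec5a and Clec12a, which lie outside it, also rose in the 3 neonatal protocols.

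**Figure D3:**
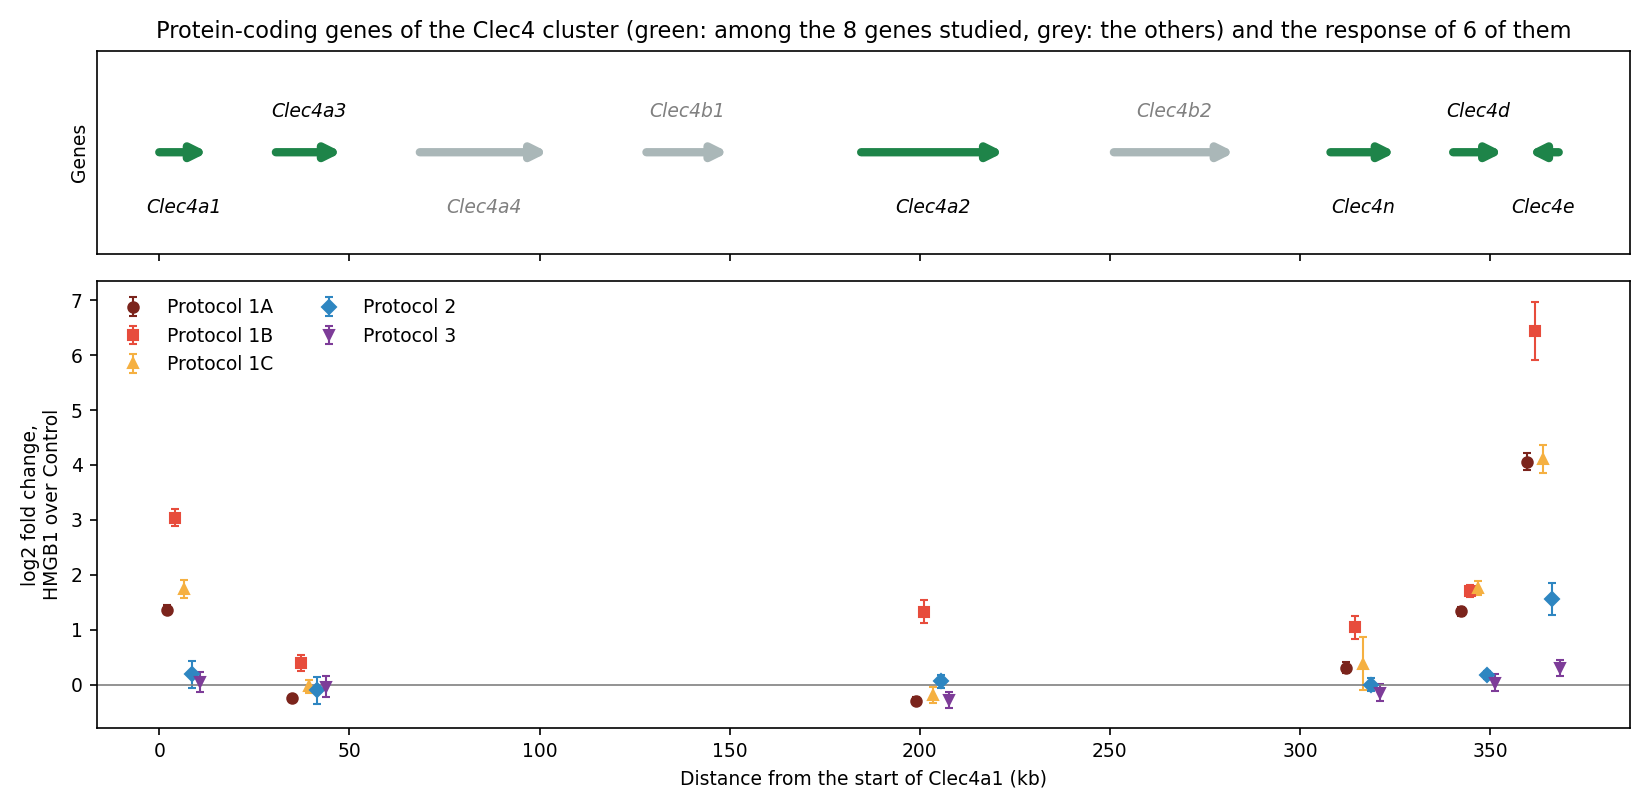
Top: the 9 protein-coding genes of the Clec4 cluster as arrows in their direction of transcription, by distance in kb from the start of Clec4a1, with the 6 genes described in green and the other 3 in grey. Bottom: log2 fold change of HMGB1 over Control with bars of 1 standard error for the 6 genes, drawn beside each other for the 5 protocols; Clec4e at the right end has the highest values and Clec4a3 and Clec4a2 lie near 0 except in Protocol 1B.

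The make-up of the group of 8 is given as a description. Per kb of transcript, the 8 members summed to 2133 ± 121 CPM per kb with HMGB1 and 659 ± 20.5 in Control in Protocol 1A, to 1214 ± 104 and 254 ± 31.2 in Protocol 1B, and to 1400 ± 181 and 382 ± 65.0 in Protocol 1C (SD, n = 3 each). Of this sum, Clec4e made up 47.8% ± 0.762 with HMGB1 and 9.15% ± 2.13 in Control in Protocol 1A, 34.4% ± 1.89 and 1.95% ± 1.25 in Protocol 1B, and 40.8% ± 2.27 and 8.70% ± 1.70 in Protocol 1C (SD, n = 3 each). In Control libraries the leading members were Clec4n and Clec4d in Protocol 1A, at 35.5% ± 2.44 and 33.1% ± 1.59, and Clec4d in Protocols 1B and 1C, at 65.2% ± 3.30 and 40.4% ± 1.41 (SD, n = 3 each). In Protocol 2 the sum was 620 ± 50.4 CPM per kb with HMGB1 and 574 ± 45.8 in Control, and Clec4e gave 1.57% ± 0.591 with HMGB1 and 0.571% ± 0.152 in Control (SD, n = 3 each). Clec4d, Clec4a1 and Clec4a3 together led there: in Control libraries they gave 28.2% ± 4.63, 24.7% ± 3.76 and 21.7% ± 3.06 (SD, n = 3). In Protocol 3 the sum was 93.3 ± 10.8 CPM per kb with HMGB1 and 90.5 ± 14.6 in Control, and Clec4e gave 27.3% ± 2.13 with HMGB1 and 23.0% ± 1.87 in Control (SD, n = 3 each), a larger Control share than in any other protocol. Clec5a also had its largest share there, at 11.7% ± 3.10 with HMGB1 and 12.4% ± 2.87 in Control (SD, n = 3 each).

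**Figure D4:**
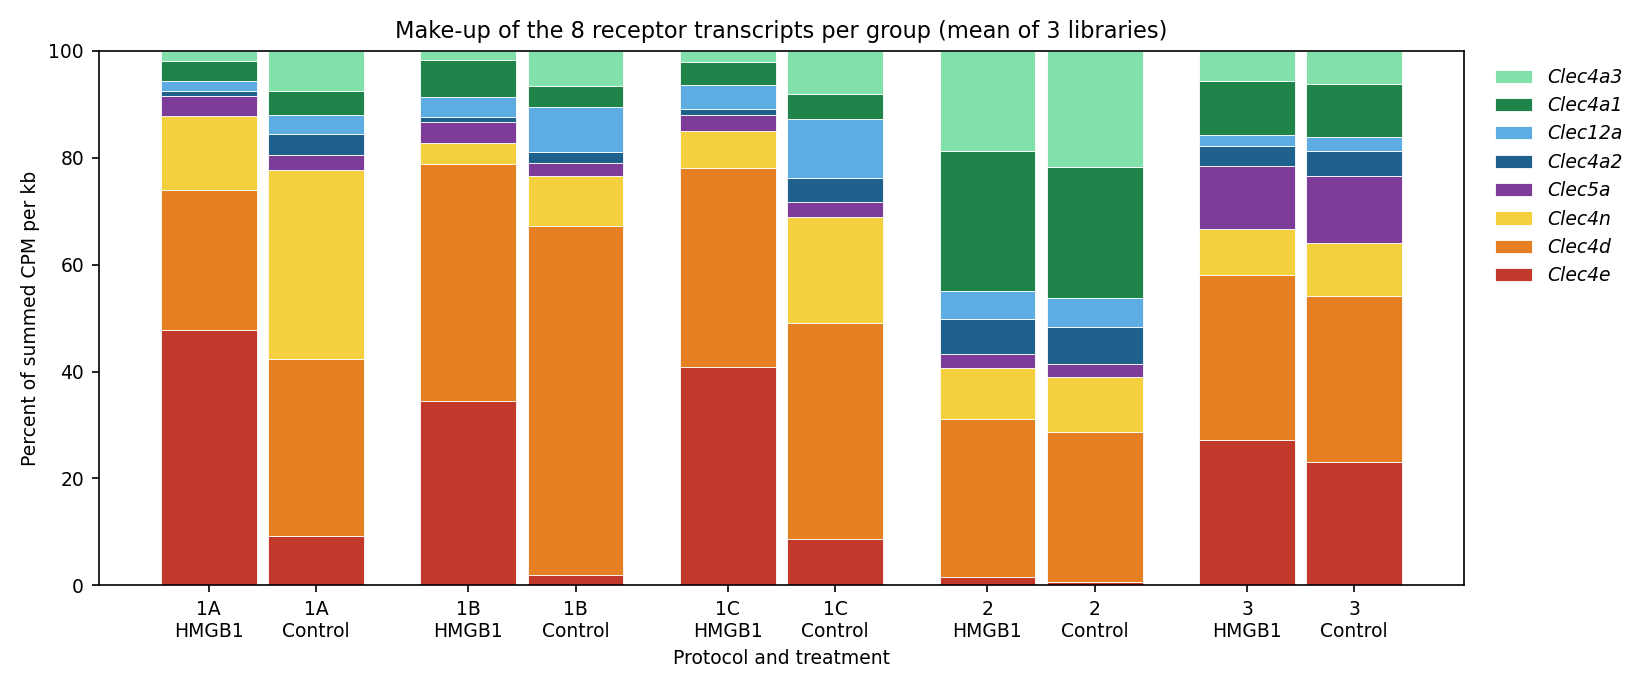
Share of each receptor gene in the summed CPM per kb of the 8 genes, in percent, as the mean of 3 libraries per group, with the HMGB1 bar left of the Control bar for each protocol. Clec4e (red) makes up 47.8% with HMGB1 and 9.15% in Control in Protocol 1A, and Clec4a1 and Clec4a3 (greens) are widest in Protocol 2.

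In adult cells kept in culture (Protocol 2), no member passed the test, where 1.21% of all 15564 genes tested rose and 0.283% fell. In edgeR 3 members had an unadjusted p below 0.05, and DESeq2's Wald test called 1, Clec4e (adjusted p = 4.25e-05). Clec4e had 61.6, 31.2 and 50.1 CPM with HMGB1, against 19.3, 14.3 and 14.5 CPM in Control (log2 fold change 1.56 ± 0.297 SE, edgeR adjusted p = 0.143). Every HMGB1 library was above every Control library, and without HMGB1 replicate 2, the lowest, the value was 1.78 (edgeR adjusted p = 0.00111). In a fit of all 30 libraries it was 1.57 (edgeR adjusted p = 0.0116). Libraries of the same number deviated together in this protocol, and with the number as a block Clec4e rose by 1.53 ± 0.0982 (edgeR adjusted p = 1.72e-08).

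With that block, 4 of the 8 members rose in Protocol 2, where 4.63% of all genes did. Clec4d had 313, 280.2 and 281 CPM with HMGB1, against 279, 254 and 238 CPM in Control (log2 fold change 0.18 ± 0.0759 SE without the block, edgeR adjusted p = 0.501, and 9.20e-04 with it). Clec5a had 62.8, 55.2 and 55.9 CPM with HMGB1, against 52.2, 47.8 and 53.0 CPM in Control (0.18 ± 0.0700, edgeR adjusted p = 0.416, and 0.0402 with the block). Both groups of libraries were close in level and did not overlap. Clec4a1 had 194, 254 and 314 CPM with HMGB1, against 167, 238 and 263 CPM in Control (0.19 ± 0.251, edgeR adjusted p = 0.946, and 7.95e-04 with the block), so its groups overlapped while each HMGB1 library was above the Control library of the same number. The remaining members, Clec4n, Clec4a2, Clec4a3 and Clec12a, had log2 fold changes of -0.01, 0.06, -0.10 and 0.06 with overlapping groups. Their 95% intervals ran between -0.27 and 0.26 for Clec4n, -0.23 and 0.34 for Clec4a2, -0.74 and 0.54 for Clec4a3 and -0.12 and 0.24 for Clec12a. The median over the 8 members was 0.12, beside 0.00 over all genes.

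In adult cells stimulated at once (Protocol 3), no member passed the test and none had an unadjusted p below 0.05 in edgeR, and DESeq2's Wald test called none. Of all 15401 genes tested 0.123% passed, all of which rose. Clec4e had 119.7, 147 and 112 CPM with HMGB1, against 104, 124 and 83.2 CPM in Control (log2 fold change 0.30 ± 0.148 SE, 95% interval -0.04 to 0.64, edgeR adjusted p = 0.992). These groups overlapped, but each HMGB1 library was above the Control library of its number, and with the number as a block Clec4e rose by 0.31 ± 0.0551 (edgeR adjusted p = 1.47e-04), where 1.7% of all genes rose. Clec4a2 had 9.55, 11.2 and 9.84 CPM with HMGB1, against 11.8, 14.3 and 11.3 CPM in Control (-0.28 ± 0.139, edgeR adjusted p = 0.981), close in level with every HMGB1 library below every Control library. The other members, none above 57.3 CPM in a library, had log2 fold changes between -0.18 and 0.05 with overlapping groups. Their 95% intervals were -0.32 to 0.39 for Clec4d, -0.48 to 0.18 for Clec4n, -0.46 to 0.44 for Clec5a, -0.50 to 0.14 for Clec12a, -0.35 to 0.46 for Clec4a1 and -0.46 to 0.38 for Clec4a3. In both treatments the library numbered 2, which also had the highest sum of neutrophil markers, had the highest level of Clec4e, Clec4d, Clec4n, Clec4a1 and Clec4a2. Without both of these libraries no member passed either. The parts of neutrophil RNA and of RNA integrity in the levels of Protocol 3 were not tested.

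Whether the responses differed between protocols was tested with the difference of the log2 fold changes in a fit of all 30 libraries. Here Protocol 1 is the mean of Protocols 1A, 1B and 1C. In Protocol 2 the response was lower than in Protocol 1 for 5 of the 8 members, where 20.6% of all 18182 genes tested had a lower response and 22.9% a higher one. The difference was -3.31 ± 0.378 SE for Clec4e (edgeR adjusted p = 2.26e-07), -2.17 ± 0.155 for Clec5a (5.50e-12), -1.86 ± 0.237 for Clec4a1 (8.88e-07), -1.42 ± 0.155 for Clec4d (1.52e-08) and -0.74 ± 0.133 for Clec12a (3.02e-05). Clec4n was at -0.58 ± 0.327 (edgeR adjusted p = 0.168) and passed without HMGB1 replicate 3 of Protocol 1C (-0.68, adjusted p = 0.0478). For Clec4a2 the difference was -0.22 (95% interval -0.59 to 0.15) and for Clec4a3 -0.14 (-0.53 to 0.26). With the replicate number as a block, 7 members passed, where 22.2% of all genes had a lower response. Clec4n (-0.57, edgeR adjusted p = 1.00e-06) and Clec4a2 (-0.22, 0.0262) passed beside these 5. Libraries of the same number deviated together in Protocol 1B as well, and less so in Protocols 1A and 1C.

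In Protocol 3 the response was lower than in Protocol 1 for 6 of the 8 members, where 22.5% of all genes had a lower response and 20.2% a higher one. The difference was -4.59 ± 0.382 SE for Clec4e (edgeR adjusted p = 1.57e-09), -2.39 ± 0.159 for Clec5a (1.21e-12), -2.02 ± 0.269 for Clec4a1 (1.73e-06), -1.58 ± 0.161 for Clec4d (3.83e-09) and -1.01 ± 0.155 for Clec12a (2.88e-06). For Clec4a2 it was -0.59 ± 0.211 (edgeR adjusted p = 0.0272). This last call was lost without Control replicate 2 of Protocol 3 (-0.48, adjusted p = 0.107 by edgeR), its HMGB1 replicate 1 (-0.54, 0.0825), its HMGB1 replicate 3 (-0.56, 0.0728) or both of its libraries numbered 2 (-0.54, 0.0969), and with Protocol 1A alone as Protocol 1 the difference was -0.03. Clec4n was at -0.75 ± 0.377 (edgeR adjusted p = 0.119) and passed without HMGB1 replicate 3 of Protocol 1C (-0.86, 0.0310). With the replicate number as a block Clec4n also passed (-0.72, edgeR adjusted p = 8.38e-07) and 7 members did in all, where 24.2% of all genes had a lower response. The same Protocol 1 libraries entered this comparison and the one with Protocol 2. Between the adult protocols, Protocol 3 minus Protocol 2, no member differed, where 0.346% of all genes had a lower response and 0.022% a higher one, and DESeq2's Wald test called none. Clec4e alone had an unadjusted p below 0.05 there (-1.28 ± 0.444, edgeR adjusted p = 0.548).

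Among the neonatal protocols, 4 members had a higher log2 fold change in Protocol 1B, without GM-CSF, than in Protocol 1A and none a lower one. Of all genes 3.7% had a higher one and 3.21% a lower one. The difference was 2.36 ± 0.439 SE for Clec4e (edgeR adjusted p = 0.00140), 1.65 ± 0.300 for Clec4a1 (0.00106), 1.59 ± 0.232 for Clec4a2 (5.94e-05) and 0.77 ± 0.188 for Clec5a (0.00972). All 4 started from lower Control levels in Protocol 1B, and most stayed lower with HMGB1. The HMGB1 means in Protocols 1B and 1A were 2070 and 5056 CPM for Clec4e and 176 and 302 CPM for Clec5a. They were 37.4 and 63.7 CPM for Clec4a2 and 131 and 123 CPM for Clec4a1. Clec12a was at 0.33 ± 0.163 (edgeR adjusted p = 0.269) and passed without Control replicate 1 of Protocol 1A (0.48, 0.0493). Clec4n, Clec4a3 and Clec4d were at 0.70, 0.61 and 0.34 (edgeR adjusted p = 0.390, 0.158 and 0.360). With the replicate number as a block, Clec4n, Clec4a3 and Clec4d also passed (edgeR adjusted p = 1.58e-05, 0.0104 and 0.00606). Between 21 and 10 days of culture, Protocol 1C minus 1A, no member differed, where 5.46% of all genes had a higher response and 8.53% a lower one. Clec4d alone had an unadjusted p below 0.05 (0.40 ± 0.188, edgeR adjusted p = 0.179), and DESeq2's Wald test called none.

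In Control libraries 6 of the 8 members had their lowest group mean in freshly isolated cells, Clec4e and Clec5a being the others. The part of the lower RNA integrity of Protocol 3 in its Control levels was not tested. Compared with Protocol 3, 6 of 8 members were higher in Protocol 1, where 37.3% of all 17033 genes tested were higher and 42.9% lower, and 6 were higher and 1 lower in Protocol 2, where 40.1% were higher and 37.2% lower. The median log2 fold change of the 8 members was 1.96 for Protocol 1 over 3 and 2.88 for Protocol 2 over 3, beside -0.12 and 0.08 over all genes. Clec12a was among the most different: its 9 Control libraries of Protocol 1 had 102 to 249 CPM, those of Protocol 2 had 156, 183 and 174 CPM and those of Protocol 3 had 12.4, 12.4 and 12.6 CPM. Its log2 fold change over Protocol 3 was 3.54 ± 0.132 SE in Protocol 1 (edgeR adjusted p = 4.64e-14) and 3.69 ± 0.142 in Protocol 2 (1.22e-13).

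The cluster genes other than Clec4e were also lowest in Protocol 3, and the relatives of DCIR were highest in Protocol 2. Clec4a3 had 126, 179.8 and 193 CPM in Protocol 2 Control libraries, against 8.19, 7.25 and 6.47 CPM in Protocol 3 Control libraries (log2 fold change 4.43 ± 0.155 SE, edgeR adjusted p = 4.33e-14). Clec4a1 had 167, 238 and 263 CPM in Protocol 2, against 13.3, 18.2 and 11.2 CPM in Protocol 3 (3.88 ± 0.233, edgeR adjusted p = 6.61e-09). Clec4a2 had 98.7, 123 and 128 CPM in Protocol 2, against 11.8, 14.3 and 11.3 CPM in Protocol 3 (3.14 ± 0.137, edgeR adjusted p = 2.64e-13). None of these groups came near each other. The mean of Protocol 1 was also above Protocol 3 for the same 3 genes, by 2.35 ± 0.135 for Clec4a3 (edgeR adjusted p = 2.63e-11), 0.90 ± 0.192 for Clec4a1 (8.71e-04) and 1.56 ± 0.119 for Clec4a2 (6.09e-10). Control libraries of Protocol 1B alone overlapped those of Protocol 3 for Clec4a1 and Clec4a2. Clec4a1 had 14.6 to 17.5 CPM there, against 11.2 to 18.2 CPM in Protocol 3. Clec4a2 had 12.9 to 16.8 CPM there, against 11.3 to 14.3 CPM in Protocol 3. Clec4n had 93.6, 83.6 and 71.3 CPM in Protocol 2, against 10.96, 15.1 and 12.1 CPM in Protocol 3 (2.62 ± 0.294, edgeR adjusted p = 7.03e-06), and was 3.03 ± 0.273 higher in Protocol 1 than in Protocol 3 (8.00e-07). Clec4d had 279, 254 and 238 CPM in Protocol 2, against 40.9, 57.3 and 38.0 CPM in Protocol 3 (2.42 ± 0.170, edgeR adjusted p = 5.78e-09), and was 2.59 ± 0.156 higher in Protocol 1 than in Protocol 3 (6.95e-10).

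Clec4e and Clec5a went another way. Clec4e had 19.3, 14.3 and 14.5 CPM in Protocol 2 Control libraries, against 104, 124 and 83.2 CPM in Protocol 3 Control libraries (log2 fold change -2.77 ± 0.407 SE, edgeR adjusted p = 8.17e-05). It was thus the one member lower in Protocol 2 than in Protocol 3. In Protocol 1 its Control level spread widely, at 298 ± 62.2 CPM in Protocol 1A, 23.6 ± 13.96 CPM in Protocol 1B and 166 ± 47.1 CPM in Protocol 1C, against 104 ± 20.5 CPM in Protocol 3 (SD, n = 3 each). Their mean did not pass against Protocol 3 (-0.02 ± 0.304, 95% interval -0.70 to 0.65, edgeR adjusted p = 0.947), whereas Protocol 1A alone was higher by 1.45 (edgeR adjusted p = 0.00449). Clec5a had the narrowest span of Control means, 2.93-fold between the highest and the lowest protocol. It had 52.2, 47.8 and 53.0 CPM in Protocol 2 and 35.9, 43.2 and 48.3 CPM in Protocol 3 (0.18 ± 0.120, 95% interval -0.07 to 0.43, edgeR adjusted p = 0.178), and passed without Control replicate 3 of Protocol 3 (0.29, 0.0480). For Protocol 1 over 3 Clec5a was at -0.14 ± 0.0982 (95% interval -0.35 to 0.06, edgeR adjusted p = 0.193) and passed without Control replicate 1 of Protocol 3 (-0.24, 0.0429). With DESeq2's size factors it passed too (-0.22, edgeR adjusted p = 0.0420), and with Protocol 1A alone it was higher by 0.61.

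**Figure D5:**
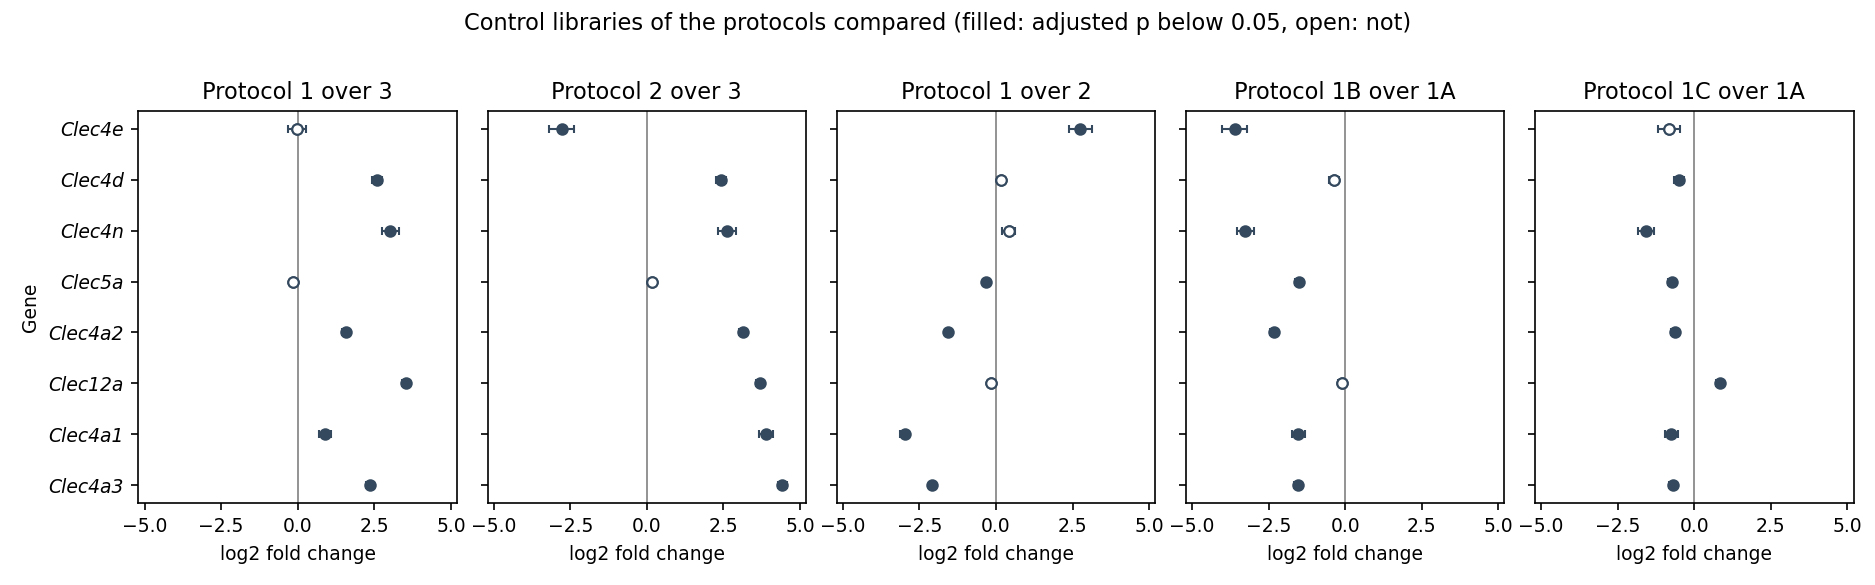
Log2 fold change between Control libraries of the protocols named above each panel, for the 8 receptor genes, with bars of 1 standard error; filled symbols passed edgeR's adjusted p below 0.05 and open ones did not. In the panel of Protocol 2 over 3, Clec4a3 has the highest value (4.43) and Clec4e the lowest (-2.77).

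Between the cultured protocols, Protocol 1 had lower levels of 4 members and a higher level of 1, compared with Protocol 2, where 30.7% of all genes were lower and 24.6% higher. The lower ones were Clec4a1 (log2 fold change -2.98 ± 0.153 SE, edgeR adjusted p = 6.26e-09), Clec4a3 (-2.07 ± 0.0971, 2.17e-11), Clec4a2 (-1.58 ± 0.0939, 1.92e-10) and Clec5a (-0.32 ± 0.0961, 0.00816), and the higher one was Clec4e (2.75 ± 0.372, 8.32e-05). Its Control mean in Protocol 1B, 23.6 CPM, was near the 16.1 CPM of Protocol 2 with overlapping libraries, against 298 and 166 CPM in Protocols 1A and 1C. With Protocol 1A alone as Protocol 1, all 8 members differed, 4 lower and 4 higher, where 29.4% of all genes were lower and 23.4% higher, and Clec5a was higher by 0.43 in place of lower. Clec4d was at 0.18 ± 0.131 (95% interval -0.11 to 0.46, edgeR adjusted p = 0.279), Clec4n at 0.41 ± 0.221 (-0.08 to 0.90, 0.143) and Clec12a at -0.16 ± 0.0994 (-0.37 to 0.05, 0.201). Clec4n passed without Control replicate 3 of Protocol 1C (0.51, edgeR adjusted p = 0.00117), and Clec12a passed without Control replicate 3 of Protocol 1A (-0.21, 0.0269).

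GM-CSF in the neonatal culture went with higher levels of most members. In Control libraries 6 of 8 members were lower in Protocol 1B, without GM-CSF, than in Protocol 1A, with it, where 12.6% of all genes were lower and 18.2% higher. Clec4n had 39.0, 34.7 and 28.4 CPM in Protocol 1B, against 369, 322 and 305 CPM in Protocol 1A (log2 fold change -3.25 ± 0.288 SE, edgeR adjusted p = 6.82e-06). Clec4e had 12.3, 39.2 and 19.4 CPM in Protocol 1B, against 233, 304 and 357 CPM in Protocol 1A (-3.61 ± 0.414, edgeR adjusted p = 6.88e-05). Every library without GM-CSF was far below every library with it for both genes. Clec4a2 had a log2 fold change of -2.33 ± 0.133 (edgeR adjusted p = 6.07e-10), Clec4a3 of -1.53 ± 0.136 (2.11e-07), Clec4a1 of -1.52 ± 0.220 (2.17e-04) and Clec5a of -1.51 ± 0.124 (2.55e-08). Clec4d was at -0.36 ± 0.159 (edgeR adjusted p = 0.109) and passed without Control replicate 1 of Protocol 1B (-0.49, 0.0398) and in a fit of these 6 libraries (-0.41, 0.0199). Clec12a had 115, 116 and 118 CPM in Protocol 1B, against 102, 124 and 159 CPM in Protocol 1A (-0.10 ± 0.124, 95% interval -0.36 to 0.16, edgeR adjusted p = 0.586). The Control sum of monocyte markers was also lower in Protocol 1B, at 239 to 348 CPM against 617 to 718 CPM in Protocol 1A, and that of neutrophil markers was 2.40 to 4.57 CPM against 43.2 to 61.1 CPM. Of the 8 monocyte markers 7 were lower, while of the 12 neutrophil markers 2 were lower and 10 did not pass. Retnlg, Ly6g, Elane and Mpo were at 0 in Control of both protocols. The Control sum of border macrophage markers was higher in Protocol 1B, at 3147 to 3761 CPM against 1208 to 1343 CPM in Protocol 1A, with 4 of the 8 markers higher and 4 that did not pass. The part of these cell types in the differences was not tested.

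A longer culture went with lower levels of 6 members and a higher level of 1. In Control libraries of Protocol 1C (21 days) over Protocol 1A (10 days), where 7.91% of all genes were lower and 13.1% higher, Clec12a was the member that was higher, with 249, 192 and 244 CPM in Protocol 1C, against 102, 124 and 159 CPM in Protocol 1A (log2 fold change 0.85 ± 0.124 SE, edgeR adjusted p = 1.04e-04). Clec4n had 143, 126 and 61.8 CPM in Protocol 1C, against 369, 322 and 305 CPM in Protocol 1A (-1.57 ± 0.267, edgeR adjusted p = 0.00162). Clec5a had a log2 fold change of -0.73 ± 0.120 (edgeR adjusted p = 2.02e-04), Clec4a3 of -0.69 ± 0.132 (0.00109), Clec4a2 of -0.63 ± 0.124 (0.00129), Clec4a1 of -0.76 ± 0.213 (0.0245) and Clec4d of -0.49 ± 0.159 (0.0426). The last pair were the weakest calls. That of Clec4a1 was lost without Control replicate 2 (-0.74, edgeR adjusted p = 0.0715) or 3 (-0.69, 0.0790) of Protocol 1A or replicate 2 (-0.59, 0.0780) or 3 (-0.77, 0.0712) of Protocol 1C. That of Clec4d was lost without Control replicate 1 (-0.42, edgeR adjusted p = 0.139), 2 (-0.50, 0.0936) or 3 (-0.54, 0.0583) of Protocol 1A or replicate 2 (-0.46, 0.121) or 3 (-0.38, 0.151) of Protocol 1C. Clec4e was at -0.82 ± 0.369 (edgeR adjusted p = 0.155). Border macrophage markers summed to between 1792 and 2108 CPM in Control of Protocol 1C against 1208 to 1343 CPM in Protocol 1A, and neutrophil markers to between 13.6 and 29.2 CPM against 43.2 to 61.1 CPM. Of the 8 border macrophage markers 4 were higher and 2 lower, and of the 12 neutrophil markers 1 was lower and 11 did not pass. The part of these cell types was not tested.

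Over the 10 groups, the order of levels differed between members. Clec4e was highest in Protocol 1A with HMGB1, at 5056 ± 258 CPM, followed by Protocol 1C with HMGB1 (2843 ± 487), Protocol 1B with HMGB1 (2070 ± 164) and Control of Protocol 1A (298 ± 62.2), with no overlap between neighbours down to there (SD, n = 3 each). Below these, Control of Protocol 1C overlapped Protocol 3 with HMGB1, which overlapped Control of Protocol 3, and the 3 lowest groups, Protocol 2 with HMGB1, Control of Protocol 1B and Control of Protocol 2, overlapped each other in turn. Clec4a1, Clec4a2 and Clec4a3 were highest in both groups of Protocol 2, which overlapped each other and no other group, and lowest in both groups of Protocol 3. For Clec4a1 and Clec4a2, Control of Protocol 1B overlapped the higher group of Protocol 3. Clec4d, Clec4n and Clec12a were also lowest in both groups of Protocol 3, with no overlap with the group above. Clec5a was lowest in Control of Protocol 1B, at 23.2 ± 1.92 CPM (SD, n = 3), below all other groups.

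Across the 10 group means of log2 CPM, the members fell into patterns that are given as a description, since the points share Control and HMGB1 libraries of the same protocol. Clec4a2 and Clec4a3 were the most alike pair (Pearson r = 0.969), followed by Clec4d and Clec12a (0.926) and by Clec4e and Clec5a (0.900), while Clec4e and Clec4a3 were unrelated (-0.088). Among 14311 protein-coding genes, the patterns most like that of Clec4e were those of Mfsd6l (0.981), Pstpip2 (0.980) and Pik3r6 (0.978). For Clec5a they were Tma16 (0.980), Psmb2 (0.977) and Syk (0.976), of which Syk encodes the kinase named above. For Clec4d they were Dpysl2 (0.995), Ublcp1 (0.994) and Cab39l (0.993), and for Clec12a Evl (0.997), Ercc3 (0.995) and Dazap2 (0.994). For Clec4n they were Tor1a (0.972), S100a10 (0.968) and H13 (0.963), for Clec4a1 H2-T22 (0.976), Ppp2r3c (0.975) and Olfr132 (0.969), for Clec4a3 Mrpl1 (0.991), Gpr107 (0.987) and Wbp1l (0.987), and for Clec4a2 Clec4a3 itself, Mrpl1 (0.960) and Zfp992 (0.956).

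The activating receptors signal through adaptors and the Syk and Card9 pathway. Of a list of 20 such genes, 11 rose and 5 fell with HMGB1 in Protocol 1A, 10 rose and 3 fell of 19 tested in Protocol 1B, 9 rose and 4 fell of 20 in Protocol 1C, 3 rose in Protocol 2 and none passed in Protocol 3, where 1 had an unadjusted p below 0.05. Of all genes 29.7% rose and 31.6% fell in Protocol 1A, 29.8% and 32% in Protocol 1B and 28.4% and 31.8% in Protocol 1C. The shares of the list that passed in either direction in Protocols 1B and 1C, 13 of 20 in Protocol 1C, are thus near those of all genes. In Protocol 2 1.21% of all genes rose, and in Protocol 3 0.123% did. The median log2 fold change of the list in Protocol 1A was 0.41, beside -0.04 over all genes. Malt1, which encodes the protease of the Card9 complex, had 689 CPM with HMGB1 and 58.7 CPM in Control in Protocol 1A (log2 fold change 3.53 ± 0.0851 SE, edgeR adjusted p = 5.81e-13). Syk had 1271 CPM with HMGB1 and 411 CPM in Control (1.60 ± 0.0636, edgeR adjusted p = 6.36e-11), and Lyn, a kinase of the Src family, and Bcl10, the partner of Malt1, rose by 1.40 and 0.95 (4.42e-10 and 1.91e-08). Tyrobp, the adaptor of Clec5a, was at 0.00 (605 CPM with HMGB1 and 593 CPM in Control, edgeR adjusted p = 0.957), and Btk, another kinase, was at 0.01 (0.948). A further pair was chosen after its values were seen: Fcer1g, the adaptor of Clec4e, Clec4d and Clec4n, rose by 0.60 (1116 CPM with HMGB1 and 727 CPM in Control, edgeR adjusted p = 1.36e-05), and Card9 fell to 30.8 CPM with HMGB1, against 68.3 CPM in Control (-1.17, edgeR adjusted p = 2.35e-08). In Protocol 2 the 3 that rose were Malt1 (1.02, 54.5 CPM with HMGB1 and 26.8 CPM in Control, edgeR adjusted p = 1.98e-04), Syk (0.48, 0.00228) and Vav1, an exchange factor downstream of Syk (0.34, 0.0335), and Fcer1g and Tyrobp were at 0.01 and -0.02.

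Of 9 transcription factor genes of myeloid cells and of their activation, 7 rose and 2 fell in Protocol 1A, 6 rose and 1 fell in Protocol 1B, 7 rose and 1 fell in Protocol 1C, 2 rose and 1 fell in Protocol 2 and none passed in Protocol 3, where none had an unadjusted p below 0.05. Of all genes 29.7% rose and 31.6% fell in Protocol 1A, 29.8% and 32% in Protocol 1B and 28.4% and 31.8% in Protocol 1C. In Protocol 2 these shares were 1.21% and 0.283%, and in Protocol 3 0.123% rose. In Protocol 1A the strongest calls were Nfkb1 (log2 fold change 2.53, 614 CPM with HMGB1 and 104 CPM in Control, edgeR adjusted p = 1.17e-12) and Cebpd (2.64, 298 CPM with HMGB1 and 47.0 CPM in Control, edgeR adjusted p = 2.43e-11), the genes of an NF-kB subunit and of C/EBP delta, followed by Rela (1.30) and Hif1a (1.34). In Protocol 2 Nfkb1 rose by 0.49 (edgeR adjusted p = 0.00114), Cebpb, the gene of C/EBP beta, rose by 0.59 (0.0270) and Cebpa, another C/EBP gene, fell by 0.48 (0.00141). In Control libraries Protocol 1 had lower levels than Protocol 3 of 8 of these 9 genes and a higher level of none, where 42.9% of all genes were lower and 37.3% higher, and the largest difference of the 9 was that of Nfkb1 (102 CPM in Protocol 1 and 2126 CPM in Protocol 3, log2 fold change -4.43, edgeR adjusted p = 4.12e-23).

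Of 4 genes of phosphatases that inhibitory receptors such as DCIR and MICL recruit, Ptpn6 and Ptpn11 rose and Inpp5d and Inppl1 fell in Protocol 1A (log2 fold changes 0.83, 0.77, -1.43 and -0.26), and none passed in Protocol 2 or 3, where none had an unadjusted p below 0.05. Of all genes 29.7% rose and 31.6% fell in Protocol 1A, and 1.21% rose in Protocol 2 and 0.123% in Protocol 3. Of the genes of endogenous ligands of Mincle, Ugcg, which makes glucosylceramide, had 93.8 CPM with HMGB1 and 29.9 CPM in Control in Protocol 1A (1.62, edgeR adjusted p = 3.26e-10), and Sap130 was at 0.17 (0.0571).

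Other C-type lectin receptor genes moved both ways. Of a list of 26, 15 were tested in Protocol 1A, where 6 rose and 6 fell, 12 in Protocol 1B, where 6 rose and 1 fell, and 16 in Protocol 1C, where 5 rose and 1 fell, beside 28.4% to 29.8% of all genes that rose and 31.6% to 32% that fell in these protocols. The median in Protocol 1A was -0.34. In Protocol 1A Olr1, a receptor for oxidised lipoprotein, rose by 3.06, Clec2d by 1.98, and Cd302 and Ly75 by 1.25 each. Clec7a, the gene of the beta-glucan receptor Dectin-1, was at -0.34 (650 CPM with HMGB1 and 808 CPM in Control, edgeR adjusted p = 0.0964). In Protocol 2 Cd69 (1.41, edgeR adjusted p = 5.57e-04) and Olr1 (1.22, 0.0353) rose of 19 tested, where 1.21% of all genes rose. In Protocol 3 none of 18 passed and 2 had an unadjusted p below 0.05, where 0.123% of all genes passed. Between Control libraries of Protocols 1 and 3, 8 of 20 were higher in Protocol 1 and 8 were lower there, near the 37.3% and 42.9% of all genes, and Clec7a was one of the higher ones, with 932 CPM in Protocol 1 and 49.9 CPM in Protocol 3 (4.08).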

How the data were processed

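Bulk RNA-seq of 30 libraries was analysed. Per the labels, the authors used HISAT2 2.0.5 as aligner and featureCounts 1.5.0-p3 as counter. Their deposited table holds raw counts of 54532 genes, with columns matched to libraries by name. The build is not given in the sources used here, but 98.3% of 54409 gene IDs shared with GENCODE M21 (GRCm38) had the same position. Strand was not stated. Replicates within a group were separate isolations, so p-values measure the spread between these. The main test treats all libraries as independent. Where treated and untreated cells shared an isolation, it leaves that pairing out, and the block described below takes it in.

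Counts were tested with edgeR 4.0.16 in R 4.3.3 (filterByExpr, TMM scaling, robust quasi-likelihood F-test, Benjamini-Hochberg adjustment over all genes tested, adjusted p below 0.05). Responses to HMGB1 were fitted on the 6 libraries of a protocol, Control comparisons on the 15 Control libraries and differences of responses on all 30. Intervals are 95% intervals of the fitted log2 fold change. Levels are TMM-scaled CPM, divided by the deposited gene length for CPM per kb, and correlations used log2 CPM with a prior count of 2. Promoters came from RefSeq, build GRCm38.p6. Steps were tested on simulated data. Members and lists were chosen with earlier results of these data known. From each list, at most 4 genes that passed were named, in order of adjusted p, and at most 2 abundant ones that failed. Named similar genes were the 3 with the highest correlation.

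Libraries of the same replicate number deviated together in Protocol 2 (r of their deviations 0.288, 0.185 and 0.180) and in Protocol 3 (0.151, 0.131 and 0.186). They also did so in Protocol 1B (0.096, 0.234 and 0.307). Values were lower in Protocol 1A (0.018, 0.066 and 0.055) and Protocol 1C (0.070, 0.052 and 0.090). The number was therefore also used as a block. The study's methods name no such pairing. Alternatives were DESeq2 1.42.0, its size factors, no count filter, an absolute log2 fold change of at least 1, other sets of libraries, the block and leaving out each library. Leaving out both Protocol 3 libraries numbered 2 was added after seeing the data.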

Additional observations from a re-analysis of the deposited data

Results flagged for a closer look

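Responses to HMGB1 that differed between protocols in the test of the difference itself are listed together here, as the difference of log2 fold changes. In Protocol 2 minus Protocol 1 these were Clec4e (-3.31), Clec5a (-2.17), Clec4a1 (-1.86), Clec4d (-1.42) and Clec12a (-0.74). In Protocol 3 minus Protocol 1 they were Clec4e (-4.59), Clec5a (-2.39), Clec4a1 (-2.02), Clec4d (-1.58), Clec12a (-1.01) and Clec4a2 (-0.59). In Protocol 1B minus Protocol 1A they were Clec4e (2.36), Clec4a1 (1.65), Clec4a2 (1.59) and Clec5a (0.77). The cause of these differences was not tested.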

How the results depend on the processing

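With an absolute log2 fold change of at least 1 also required, 4 members in place of 8 passed in Protocol 1A and 1 in place of 7 in Control of Protocol 1C over 1A. In one fit of all 30 libraries 5 passed in Protocol 1A and 1 in Protocol 2, where DESeq2's Wald test also called 1. Leaving out each library in turn gave 0 to 1 members in Protocol 2. With the replicate block, 4 members passed in Protocol 2 and 1 in Protocol 3. The block left 8 members passing in Protocol 1A and 8 in Protocol 1B, and gave 6 in Protocol 1C, with Clec4n added (0.36). It gave 7 in place of 4 members for Protocol 1B minus 1A and 2 in place of 0 for Protocol 1C minus 1A. Every HMGB1 library of Protocols 1B and 1C correlated best with the Control library of its own number. Without a count filter 1 member passed in Protocol 1C minus 1A and 1 in Protocol 3 minus 2. With Protocol 1A alone as Protocol 1, 8 members differed in Control from Protocol 2, Clec5a turned to 0.43 over Protocol 2 and 0.61 over Protocol 3, and Clec4e to 1.45 over Protocol 3. The cause was not tested.

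Over all genes, the 232 calls in Protocol 2 became 530 without a filter and 1236 with the block. The 19 in Protocol 3 became 8 in one fit of all libraries, 4 without both libraries numbered 2, 69 with the Wald test, 123 without a filter and 334 with the block. The 67 in Protocol 3 minus 2 became 177 without a filter and 158 with the block, and the 1255 in Protocol 1B minus 1A became 2035 with the block. Of the calls in Protocol 1C minus 1A, 39.0% were higher, against 54.1% with DESeq2's size factors and 53.6% with its Wald test. Of 120 values of members in 15 comparisons, 119 kept their side of the threshold with DESeq2's size factors, 119 with its Wald test and 110 without a filter. Of 1248 values with a library left out, 1220 did, 19 no longer passed and 9 newly passed. Among the 1220, 53 changed sign, none of which passed with or without the library, and no value that passed did. Members had at least 102 counts in each library, and the 3 libraries per group set the limit.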
